A study of Mus musculus with 4 samples.

Results

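A divergent promoter is the stretch between the starts of 2 genes that are transcribed away from each other. Of the 4523 E2F1 ChIP-seq peaks in the deposited table, 232 (5.13%) lay at such a promoter. A peak was taken when its centre was within 500 bp of the transcript starts of 2 different protein-coding genes on opposite strands, with the minus-strand start at the lower coordinate (GENCODE M1 annotation, mm9 build). The comparison group was the 3559 peaks (78.7%) within 500 bp of the start of 1 protein-coding gene only. A further 65 peaks touched several protein-coding starts that were not in the divergent arrangement, and 667 touched none. The rule used positions only and no signal values.

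The peaks were measured in mouse embryonic stem cells (ESCs), pluripotent cells that can be kept in different media. Serum ESCs grew in fetal calf serum with LIF, a cytokine that supports self-renewal. 2i ESCs grew in serum-free Ndiff 227 medium with LIF, the MEK inhibitor PD0325901, through which ERK signaling is shut off, and the GSK3 inhibitor CHIR99021. ChIP-seq sequences the DNA that an antibody, here against E2F1, pulls down from fixed chromatin. There were 2 replicates of each condition, 4 samples in all, each described as a biological replicate, and the labels name neither the ESC line nor separate cultures, so p-values measure the spread between these samples. No input sample was analysed here, so background is not subtracted from any value.

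E2F1 is an activating member of the E2F transcription factors. RB family proteins bind E2F factors and hold their target genes down until cyclin-dependent kinases phosphorylate RB at the entry into S phase, and known targets include replication, nucleotide and histone genes. Divergent promoters are common in mammalian genomes, often lie in CpG islands, and in many cases serve housekeeping genes for chaperones, RNA processing, DNA repair and histones. The study examined cell cycle control in serum and 2i ESCs, and the comparison of E2F1 occupancy between them is made here at the promoters that 1 peak shares between a pair of genes.

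The 232 peaks belonged to 230 gene pairs with 460 genes on 20 chromosomes. Only the histone pairs Hist1h2ah/Hist1h2bk and Hist1h2ae/Hist1h2bg had 2 peaks each. Pairs are written with the minus-strand gene first. In 61 peaks a partner was a predicted or unnamed gene, with a symbol of the Gm or Rik kind, and 5 peaks touched 1 more gene. Chromosome 8 held 26 of the peaks (11.2%), against 6.52% of all peaks and 6.10% of the single-gene peaks. The starts were 110 bp apart at the median, with quartiles of 55 and 178 bp and a range from 2 to 798 bp. Among all annotated divergent pairs with starts up to 500 bp apart, 228 of 1064 (21.4%) had such a peak. Of the 2099 genes in those pairs 524 had a peak at a start (interval of the share 23.1% to 26.9%), against 3535 of the other 20281 protein-coding genes (17.4%). This difference was not tested, and 1 peak counts for both genes of a pair. Intervals of shares are 95% Clopper-Pearson intervals for counting error alone.

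The sequences between the starts differ widely between pairs, and 6 are shown from the mm9 genome, plus strand, with both start bases left out. The first 2 belong to called peaks with large changes that were higher in 2i, and the others to peaks with the highest mean signal, since the values of these pairs are given further on. Capitals mark 5 kinds of searched promoter element, on either strand. The E2F element was searched as TTCCCGC, as its common variant TTGGCGC, as the CpG-rich form TTCGCGC and finally as the form TTGCCGC. The ETS element was searched as CCGGAAG, the NRF1 element as GCATGCGC, the NFY element as the CCAAT box, and the TATA box as TATAAA. Matches of different elements may overlap.
Skiv2l/Rdbp, chr17:34987156-34987335: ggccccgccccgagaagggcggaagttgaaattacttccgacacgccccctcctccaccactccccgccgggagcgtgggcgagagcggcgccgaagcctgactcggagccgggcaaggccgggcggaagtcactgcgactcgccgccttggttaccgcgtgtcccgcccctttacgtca
Gm10517/Trp53bp2, chr1:184339152-184339302: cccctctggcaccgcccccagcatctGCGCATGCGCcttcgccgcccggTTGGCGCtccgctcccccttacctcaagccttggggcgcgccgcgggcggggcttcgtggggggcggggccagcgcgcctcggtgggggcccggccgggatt
Actg1/0610009L18Rik, chr11:120209857-120209991: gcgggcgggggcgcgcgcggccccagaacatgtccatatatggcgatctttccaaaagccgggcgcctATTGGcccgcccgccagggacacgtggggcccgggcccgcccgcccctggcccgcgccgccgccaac
Chtf8/Cirh1a, chr8:109417494-109417539: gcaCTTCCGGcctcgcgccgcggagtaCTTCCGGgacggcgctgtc
H1fx/Gm5577, chr6:87931477-87931676: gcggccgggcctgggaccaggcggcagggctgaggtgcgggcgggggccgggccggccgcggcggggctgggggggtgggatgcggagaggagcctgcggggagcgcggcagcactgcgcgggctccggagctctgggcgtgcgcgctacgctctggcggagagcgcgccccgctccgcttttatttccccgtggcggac
Hist1h2ac/Hist1h2bc, chr13:23775818-23776067: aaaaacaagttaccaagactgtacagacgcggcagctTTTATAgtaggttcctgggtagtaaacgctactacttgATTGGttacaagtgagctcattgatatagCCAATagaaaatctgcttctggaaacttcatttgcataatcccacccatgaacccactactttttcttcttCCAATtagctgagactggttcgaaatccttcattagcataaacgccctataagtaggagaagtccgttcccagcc

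The stretch of Gm10517/Trp53bp2 held 1 match to the E2F letters and 2 overlapping NRF1 matches, since this motif reads almost alike on both strands. The 46 bases of Chtf8/Cirh1a held 2 ETS matches. The histone stretch held 3 NFY matches and 1 TATAAA match and no E2F match. Those of Skiv2l/Rdbp and H1fx/Gm5577 held none of the 5. A match describes letters and does not show that a factor binds there. Over all 232 stretches between starts, 26 (11.2%) held an E2F match, and 52 stretches overlapped an annotated exon of some transcript.

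The centre of the peak usually lay inside 1 of the genes rather than between the starts. It was between the starts in 43 peaks (18.5%, 13.8% to 24.1%), in the minus-strand gene in 90 (38.8%) and in the plus-strand gene in 99 (42.7%). In the 189 peaks with a centre inside a gene, it was 108 bp downstream of that gene's start at the median (quartiles 56 and 197 bp). The centre was downstream of the start in 2454 of the 3559 single-gene peaks (69.0%, 67.4% to 70.5%), by a median of 107 bp. Peaks were long relative to the distance between the starts, with a median length of 482.5 bp (486 bp for single-gene peaks), and 137 peaks (59.1%) covered both starts while 64 (27.6%) covered 1. ChIP fragments were not resolved further, so a peak that covers both starts cannot be assigned to either gene.

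**Figure D1:**
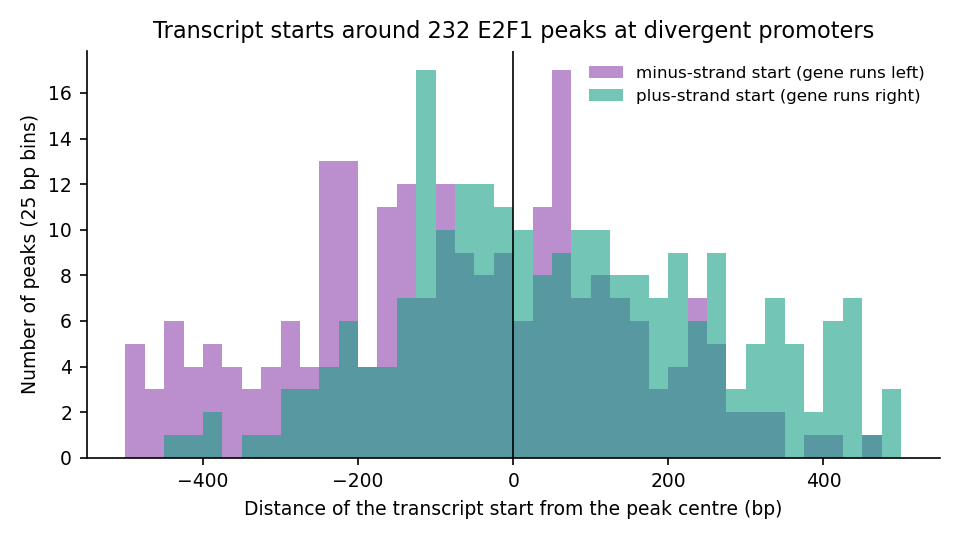
Distance in bp of the minus-strand start (purple) and of the plus-strand start (green) from the centre of each of the 232 peaks, as counts in bins of 25 bp, with the overlap of both histograms in the darker shade. Starts of each strand lie on both sides of the centre, and in 189 of the 232 peaks the centre is inside 1 of the genes.

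Elements of the 401 bp around the peak centre were counted in the same way in all groups. E2F letters were present in 77 of 232 divergent peaks (33.2%, 27.2% to 39.7%), in 29.2% (27.7% to 30.7%) of single-gene peaks and in 29.3% of the 4509 peaks on assembled chromosomes. ETS letters, bound by GABPA and related factors that often occupy housekeeping promoters, were present in 19.4% (14.5% to 25.1%) of the divergent, 13.5% (12.4% to 14.7%) of the single-gene and 13.6% of all peaks. NRF1 letters, the site of a factor for respiratory genes, were present in 7.33% (4.33% to 11.5%), 4.02% (3.40% to 4.72%) and 3.95%. The other 3 elements were NFY, in 21.6%, 19.2% and 19.7%, SP1 (GGGCGG), in 90.9%, 94.2% and 91.2%, and TATAAA, in 3.02%, 2.05% and 2.97% of the same groups. No test was made on these shares. The median GC content of these windows was 74.3% at divergent and 75.8% at single-gene peaks.

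In the 77 peaks with E2F letters, the match nearest the centre was in an untranslated exon in 38, in a coding exon in 24, between the starts in 10 and in an intron in 5. All 9 matches at histone pairs were in coding exons, and 7 of them were in a histone H2A gene and read TTGGCGC or its reverse complement. The 29 bases around the match are shown with the E2F letters in capitals, plus strand of mm9, since the H2A genes repeat nearly the same stretch and the called pairs Basp1/Gm5468 and Cep63/Anapc13 do not.
Hist1h2bl/Hist1h2ai, coding exon of Hist1h2ai, chr13:21808314-21808342: cggcaaggctcGCGCCAAggccaagactc
Hist1h2bf/Hist1h2ad, coding exon of Hist1h2ad, chr13:23666363-23666391: tggcaaggctcGCGCCAAggccaagaccc
Hist1h2ah/Hist1h2bk, coding exon of Hist1h2ah, chr13:22127370-22127398: gggtcttggccTTGGCGCgagccttgccg
Hist2h2ac/Hist2h2be, coding exon of Hist2h2ac, chr3:96024716-96024744: gcgacttggccTTGGCGCgggccttgcct
Gm17658/Hist1h4d, coding exon of Hist1h4d, chr13:23673479-23673507: acgcgggaaagGCGGCAAgggtcttggta
Basp1/Gm5468, between the starts, chr15:25343649-25343677: ctcccgctcctTTCGCGCcccgccaccca
Cep63/Anapc13, untranslated exon of Cep63, chr9:102528676-102528704: ggtaagggtttTTCGCGCccgcggcccgg

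The values are normalized counts, that is reads in a peak divided by 1 size factor per sample. The 4 samples held between 248878 reads in peaks (serum replicate 1) and 710519 (2i replicate 1), and the median peak held 35 and 111 reads in those samples. Serum replicate 1 was therefore the least precise, and 1 read was worth 1.74 normalized counts there against 0.560 in 2i replicate 1.

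E2F1 signal at divergent promoters was close to that at single-gene promoters in every sample. The median normalized count over the 232 peaks was 63.6 and 66.7 in the serum samples and 72.2 and 65.7 in the 2i samples, replicate 1 first as throughout. Over the single-gene peaks it was 62.7 and 62.9 in serum and 64.9 and 62.6 in 2i. On the log2(normalized count + 1) scale the medians of the divergent peaks were higher by 0.019 and 0.084 in serum and by 0.15 and 0.069 in 2i, a mean difference of 0.081 ± 0.054 (SD, n = 4) with the same sign in 4 of 4 samples. A two-sided exact sign-flip permutation test gave p = 0.13, the smallest that 4 samples allow (0.25 after Benjamini-Hochberg adjustment over 2 tests). When weak peaks, with a mean under 50, were left out, the difference was 0.0054. Without the histone pairs, an omission chosen once the data were seen, it was 0.041 and positive in 3 of 4 samples.

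The difference between promoter kinds in serum samples averaged 0.052 ± 0.045 (SD, n = 2), and in 2i samples 0.11 ± 0.058 (SD, n = 2). Serum was lower by 0.059 on the log2 scale, which is within the spread between replicates (two-sided exact permutation test, p = 0.667, 0.667 after adjustment, with 0.33 the smallest p that 2 against 2 samples allow).

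**Figure D2:**
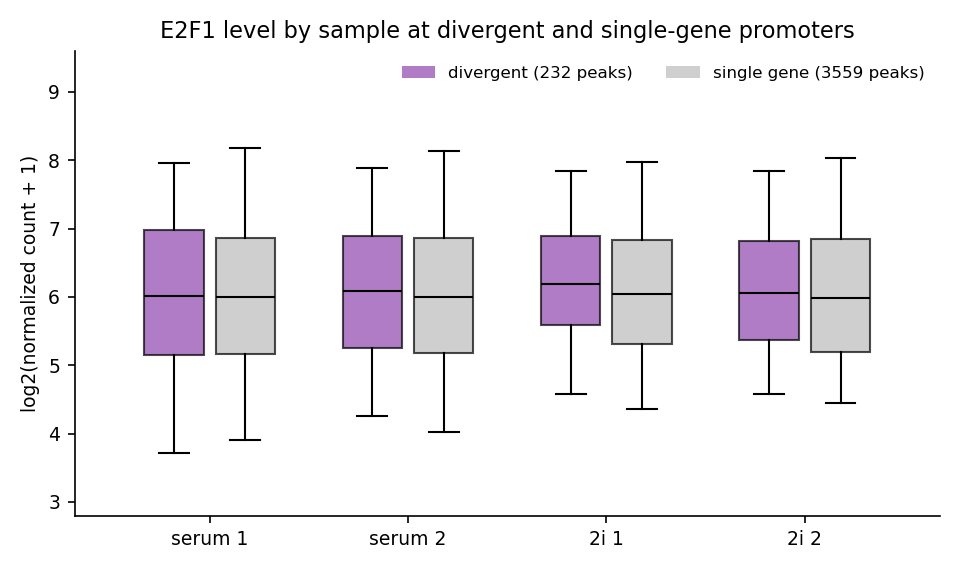
E2F1 level as log2(normalized count + 1) in each of the 4 samples, for 232 divergent peaks (purple) and 3559 single-gene peaks (grey). Boxes span the quartiles with the median as a line, and whiskers reach the 5th and 95th percentiles of the peaks; the boxes overlap almost fully in each sample, with divergent medians 0.019 to 0.15 above the single-gene medians.

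Within the divergent peaks, those with E2F letters had a higher median than those without by 0.39, 0.23, 0.15 and 0.20 on the log2 scale (mean 0.24 ± 0.10, SD, n = 4). Without the histone pairs the mean difference was 0.11 ± 0.067 (SD, n = 4). The same comparison at single-gene peaks gave 0.0046 ± 0.047 (SD, n = 4). These differences were not tested against each other. By position, the median of the mean normalized count was 78.9 for peaks centred between the starts, 71.3 for those centred in the minus-strand gene and 65.4 for those in the plus-strand gene. By the distance between the starts it was 76.8 for up to 50 bp, 63.3 for over 50 to 100 bp, 70.9 for over 100 to 200 bp and 66.7 for longer ones. Neither order held in every sample, since in serum replicate 1 the medians were 66.2 between the starts and 71.4 in the minus-strand gene, and 64.5 for up to 50 bp and 71.4 for over 100 to 200 bp.

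Of the 8 divergent peaks with the highest mean signal, the strongest lay at chr11:120209368-120210190, at the shared promoter of Actg1, which encodes cytoplasmic gamma actin, and 0610009L18Rik, with its centre in Actg1. Its normalized count was 1063 and 794 in serum and 728 and 419 in 2i. Both serum values were above both 2i values, with a log2 fold change (serum minus 2i) of 0.73 (standard error 0.34, limma unadjusted p = 0.0559, adjusted p = 0.292). It ranged from 0.34 without 2i replicate 2 to 1.13 without 2i replicate 1, where the peak was called.

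Hspd1 and Hspe1 encode the mitochondrial chaperonin Hsp60 and its partner Hsp10, a textbook divergent pair and the only one with a divergent peak among 13 such pairs that were looked up. The peak at chr1:55144359-55145306 had 657 and 536 in serum and 420 and 421 in 2i, with a log2 fold change of 0.49 (standard error 0.27, limma adjusted p = 0.362). The serum values again lay above the 2i values without passing the test. The peak centred in Chtf8, a subunit of an alternative replication clamp loader that shares the promoter with Cirh1a, a ribosome assembly factor, had 528 and 601 in serum and 378 and 400 in 2i. Its log2 fold change was 0.54 (standard error 0.26, limma adjusted p = 0.311).

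H1fx encodes a linker histone that is not tied to replication, and the peak it shares with Gm5577 had 315 and 335 in serum and 471 and 349 in 2i. It was the only 1 of the 8 highest peaks with every serum value under every 2i value, with a log2 fold change of -0.32 (standard error 0.27, limma adjusted p = 0.576). Taf5l, a SAGA complex subunit, and Urb2, a ribosome assembly factor, shared a peak with 284 and 375 in serum and 343 and 327 in 2i. These values overlap, and the log2 fold change was -0.037 (standard error 0.26, limma adjusted p = 0.956). The peak at Thoc4, an mRNA export adaptor, and Anapc11, the RING subunit of the anaphase-promoting complex, had 345 and 334 in serum and 326 and 234 in 2i. At Yrdc, a tRNA modification enzyme, and 1110065P20Rik it had 328 and 284 in serum and 290 and 236 in 2i, where the conditions overlap. None of these 8 peaks was called. Cyclic loess normalization lowered the log2 fold change of all 8, to 0.27 at Actg1/0610009L18Rik, 0.13 at Hspd1/Hspe1 and 0.19 at Chtf8/Cirh1a. It gave 0.063 at Thoc4/Anapc11, 0.0063 at 1110065P20Rik/Yrdc and 0.72 at Hist1h2ac/Hist1h2bc, described below. At H1fx/Gm5577 and Taf5l/Urb2 it gave -0.60 and -0.29.

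A peak was called when its log2 fold change passed 1 in either direction with an unadjusted limma p under 0.05, as the thresholds of the study's methods were read. Of all peaks, 10.3% were called, 4.82% in favour of serum and 5.48% in favour of 2i. This is a larger share than the paper reports for its DESeq2 calls, so it is not the study's rate. Among divergent peaks 19 of 232 were called (8.19%), 4 with more signal in serum and 15 with more in 2i. Among single-gene peaks 328 were called (9.22%, 8.29% to 10.2%), 133 in favour of serum and 195 in favour of 2i. The share at divergent promoters is thus near the background. With Benjamini-Hochberg adjustment over all peaks 1.46% of them were called, and 0 of the divergent peaks, where the smallest adjusted limma p was 0.0562. An unadjusted limma p under 0.05 was reached by 39 divergent peaks (16.8%, against 17.8% of all peaks). Adjusted calls at divergent peaks numbered 0 to 2 in the other unblocked fits. Replicates did not overlap between conditions at 120 divergent peaks (51.7%, against 49.3% of all), 51 with serum higher and 69 with 2i higher, where all peaks had 24.9% with serum higher and 24.4% with 2i higher. The median log2 fold change was -0.077 at divergent, -0.051 at single-gene and -0.031 at all peaks.

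The split of 4 against 15 changed with the scaling and the samples. It was 4 against 5 after cyclic loess normalization and 2 against 18 after rescaling to the same total. Calls over all peaks numbered 398 and 491 under these scalings. Leaving out 2i replicate 1 gave 13 in favour of serum and 5 in favour of 2i. The median log2 fold change without that sample was -0.058 at divergent and -0.029 at all peaks. The called peaks were also mostly weak. When all peaks were divided into 4 equal groups by mean signal, the weakest group (11.8 to 36.2 normalized counts) held 46 divergent peaks, 10 of them called, all higher in 2i. In that group 17.2% of all peaks were called, 62 in favour of serum and 132 in favour of 2i. By the study's methods a region could enter the table with peaks in 1 condition only. A difference at a weak region, and its direction, can thus follow in part from how regions were selected. The strongest group held 64 divergent peaks, 4 of them called, 2 in each direction, against 6.45% of all peaks of that group, 58 in favour of serum and 15 in favour of 2i. Above a mean of 50, with 149 divergent peaks tested, 3 were called in each direction, among 188 calls over all peaks at that cut.

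**Figure D3:**
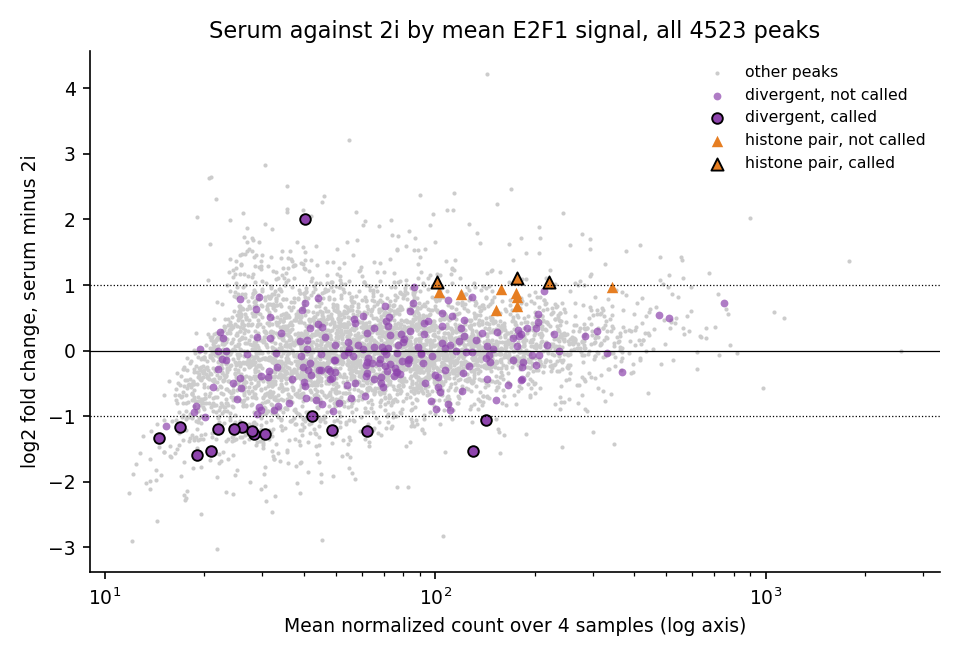
Log2 fold change (serum minus 2i) against the mean normalized count over 4 samples (log axis) for all 4523 peaks, with other peaks in grey, divergent peaks in purple, histone pairs as orange triangles and called divergent peaks outlined in black. Dotted lines mark a log2 fold change of 1 in either direction; called divergent peaks that were higher in 2i lie mostly at the weak end, and all 11 histone-pair peaks lie between 0.62 and 1.11.

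Outside the histone pairs 1 divergent peak was called higher in serum. It lies at chr15:25343317-25343738 between Basp1, a membrane-associated signaling protein of neurons and other cells, and the predicted gene Gm5468. Its normalized count was 59.2 and 69.6 in serum and 10.1 and 22.9 in 2i, or 64.4 ± 7.32 against 16.5 ± 9.10 (SD, n = 2 each). Both serum values were more than 2-fold above both 2i values. The log2 fold change of 2.00 (standard error 0.46, limma adjusted p = 0.0672) was the largest of the 232 and stayed between 1.45 and 2.56 when each sample was left out. The E2F letters shown above lie between its starts, which are 428 bp apart.

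The peak with the smallest p-value was higher in 2i. It lies at chr6:11857568-11858085, centred just inside Phf14, at the shared promoter of Ndufa4, a subunit of cytochrome c oxidase, and Phf14, a PHD finger protein. It had 57.5 and 70.5 in serum and 131 and 263 in 2i. All 2i values were above all serum values, although the 2i replicates differed 2-fold from each other. The log2 fold change was -1.53 (standard error 0.34, limma adjusted p = 0.0562) and ranged from -2.03 to -1.03 over the 4 fits without 1 sample.

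The peak between Slc16a6, a monocarboxylate transporter family member, and Arsg, a lysosomal sulfatase, was the other strong one higher in 2i, with 76.7 and 107 in serum and 153 and 234 in 2i. Its log2 fold change was -1.05 (standard error 0.30, limma adjusted p = 0.108).

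Between these and the weakest peaks lay Gng12, a G protein gamma subunit paired with 4930597O21Rik, with 29.6 and 41.9 in serum and 118 and 59.5 in 2i. Cep63, needed for centriole duplication, and Anapc13, a subunit of the anaphase-promoting complex, shared a peak with 24.4 and 32.4 in serum and 86.8 and 51.1 in 2i. Its log2 fold change was -1.22 (standard error 0.40, limma adjusted p = 0.15). The peak of Iqch and Aagab, the latter an adaptor complex assembly factor, had 27.9 and 27.6 in serum and 50.4 and 63.6 in 2i. In all 3 the serum and 2i values are apart.

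Skiv2l, an RNA helicase that assists the cytoplasmic exosome, and Rdbp, the E subunit of the negative elongation factor, have starts 181 bp apart, with the stretch between them printed above. The peak at chr17:34987221-34987541 had 6.97 and 11.4 in serum and 28.6 and 29.2 in 2i. This was the largest difference in favour of 2i, with a log2 fold change of -1.59 (standard error 0.52, limma adjusted p = 0.152), but it rests on 4 and 12 reads in serum and 51 and 28 in 2i.

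Counts were as low at Ofd1, a centriole and cilium protein, and Trappc2, a vesicle tethering subunit, with 6.97 and 14.3 in serum and 26.9 and 35.5 in 2i. They were also low at Dhx32, an RNA helicase family member, and Fank1, with 10.5 and 5.72 in serum and 23.5 and 18.8 in 2i. At Trp53bp2, a p53-binding protein, and Gm10517, the peak had 10.5 and 22.9 in serum and 49.8 and 30.3 in 2i.

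The remaining called peaks had the same arrangement of values, 2i above serum without overlap, in the values on which they were called. Chmp1a, an ESCRT-III subunit, and 4732415M23Rik had 20.9 and 14.3 in serum and 48.7 and 38.6 in 2i. Psma7, a proteasome core subunit, and Ss18l1 had 10.5 and 23.8 in serum and 41.4 and 35.5 in 2i. Sobp and 9030612E09Rik had 12.2 and 13.3 in serum and 25.8 and 36.5 in 2i. Eaf2/Golgb1, Ecd/Fam149b and Gm17649/Hoxc13 had log2 fold changes from -1.20 to -1.17 with 6 to 23 reads in each serum sample. No limma adjusted p among these called peaks was under 0.05.

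**Figure D4:**
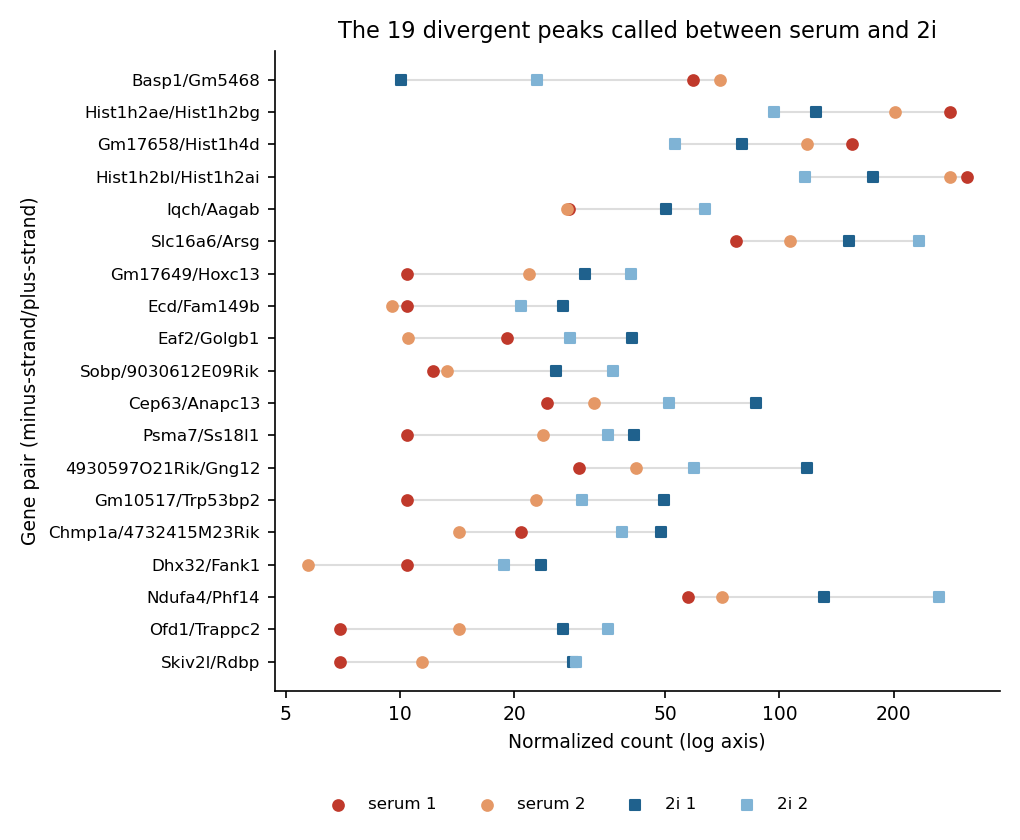
Normalized count (log axis) in serum replicates 1 and 2 (circles) and 2i replicates 1 and 2 (squares) at each of the 19 called divergent peaks, ordered by log2 fold change from serum-higher at the top. The 4 top peaks have both serum values on the right and the other 15 have both 2i values on the right, with no overlap in any row. The rows were selected on these same values, so the separation is not separate support for the calls.

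Replication-dependent histone genes encode the core histones made in S phase, and H2A and H2B genes lie head to head in the histone clusters. Of the 11 gene lists, this was the one in which every divergent peak had all its serum values above its 2i values. There were 11 peaks at 9 pairs, 10 of them at 8 pairs on chromosome 13 between 21808167 and 23776674, and 1 at Hist2h2ac/Hist2h2be on chromosome 3. All but Gm17658/Hist1h4d are H2A and H2B pairs, with starts 136 to 269 bp apart over the 11 peaks. The median normalized count of the 11 was 226 and 203 in serum and 152 and 98.1 in 2i.

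In all 11 peaks every serum value was above every 2i value, against 24.9% of all peaks, and 10 had an unadjusted limma p under 0.05, against 17.8% of all peaks. Log2 fold changes lay between 0.62 and 1.11, and their median was 0.90, beside -0.077 over all divergent and -0.031 over all peaks. The histone peaks are strong, with means from 101 to 343. In the strongest group, with means above 110, the median was 0.15 at divergent and 0.11 at all peaks. Since most of the histone peaks lie just under a log2 fold change of 1, only 3 were called. The log2 fold change was positive in 11 of 11 under every alternative fit, but the median ranged from 0.74 without 2i replicate 2 to 1.15 without 2i replicate 1, and the number called from 0 to 8. Without 2i replicate 2 the smallest was 0.074. No histone peak had an adjusted limma p under 0.05 in the fit without a block or in the other unblocked fits. With the replicate number as a block 6 of the 11 did, and all 3 called ones passed adjustment. The numbers do not pair serum with 2i samples by design, and same-numbered deviations had a correlation of 0.048 across peaks.

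The highest of them, at Hist1h2ac/Hist1h2bc (chr13:23775381-23776674), had 446 and 460 in serum and 229 and 235 in 2i. This gave a log2 fold change of 0.96 (standard error 0.25, limma unadjusted p = 0.0023, adjusted p = 0.0859). Hist1h2bl/Hist1h2ai (chr13:21808167-21808746) had 312 and 281 in serum and 176 and 117 in 2i, with a log2 fold change of 1.04 (standard error 0.27, limma adjusted p = 0.0898). At Hist1h2ae/Hist1h2bg the called peak (chr13:23663263-23663751) had 282 and 202 in serum and 125 and 97.0 in 2i, with a log2 fold change of 1.11 (standard error 0.27, limma adjusted p = 0.0770). The other peak of this pair, centred in Hist1h2ae, had 206 and 212 in serum and 105 and 112 in 2i, so the peaks on both sides of the starts gave similar values.

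Hist1h4d encodes histone H4, and its peak with Gm17658 (chr13:23673367-23673810) had 155 and 118 in serum and 79.5 and 53.2 in 2i, with a log2 fold change of 1.05 (standard error 0.30, limma adjusted p = 0.116). The smallest difference was at Hist1h2ag/Hist1h2bj, with 186 and 174 in serum and 171 and 80.3 in 2i, where 2i replicate 1 came within a few counts of serum. Outside chromosome 13, Hist2h2ac/Hist2h2be had 167 and 102 in serum and 78.9 and 61.5 in 2i, with a log2 fold change of 0.90 (standard error 0.31, limma adjusted p = 0.169).

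The pattern was not particular to divergent promoters. The 23 single-gene peaks at genes of the same list had a median log2 fold change of 0.92, 22 of them positive. Of the 23, 10 were called, all higher in serum. Over all 4523 peaks 2162 were positive, and 4.82% were called higher in serum. Several of the H2A genes carry nearly the same 29-base stretch printed above, and identity over the rest of the peaks was not measured. The study's methods give BWA with default parameters and no separate rule for reads that fit several copies, so the split of reads between similar histone genes is uncertain. With the histone pairs set aside, a choice made with the values known, 16 of 221 divergent peaks were called (7.24%, 4.19% to 11.5%). Of these 1 was in favour of serum and 15 in favour of 2i. The share is near the 10.3% of all peaks, with 4.82% in favour of serum and 5.48% in favour of 2i. Their median log2 fold change, called or not, was -0.12 over the 221 peaks.

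**Figure D5:**
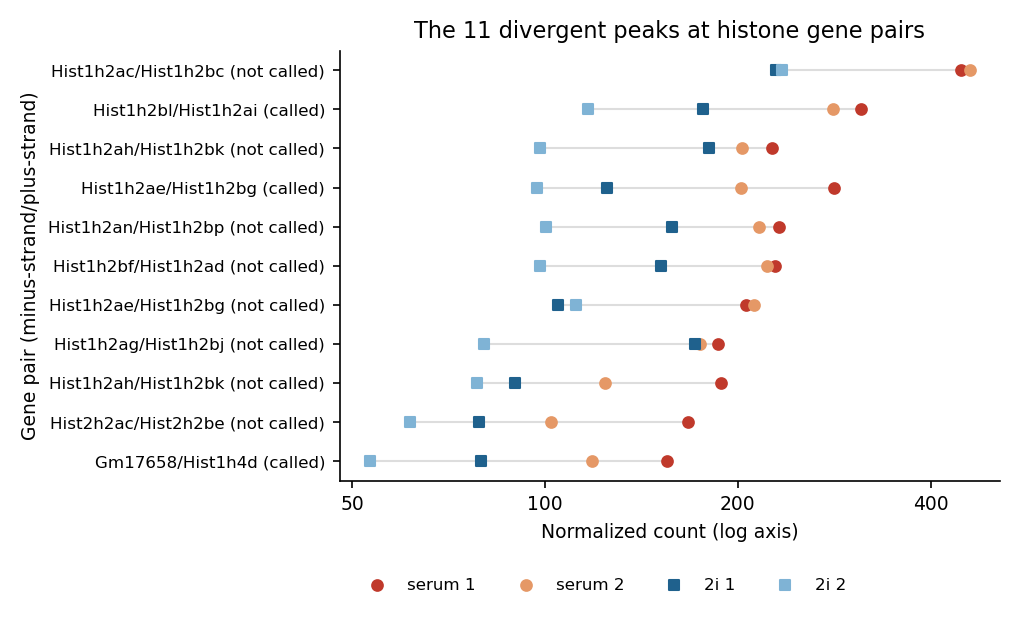
Normalized count (log axis) at the 11 divergent peaks of histone gene pairs in serum replicates 1 and 2 (circles) and 2i replicates 1 and 2 (squares), ordered by mean. In each row both circles lie to the right of both squares; at Hist1h2ag/Hist1h2bj the 2i replicate 1 value is close to the serum values.

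In the other 10 lists 4 of 51 divergent peaks were called (7.84%, against 10.3% of all peaks), all higher in 2i, where 5.48% of all peaks were called. The share is near the background. The list of G1/S control and the E2F pathway, with cyclins and E2F genes, had 25 single-gene peaks and 0 divergent ones. DNA replication and nucleotide supply genes had 4 divergent peaks and 0 calls. The highest was at Dbf4, the activating subunit of the Cdc7 kinase, and Slc25a40, with 294 and 198 in serum and 167 and 162 in 2i and a log2 fold change of 0.55 (standard error 0.27, limma adjusted p = 0.302). Its serum values were above its 2i values, and the log2 fold change was 0.27 without serum replicate 1 and 0.84 without serum replicate 2. Topbp1, a replication checkpoint protein, Wdhd1, a replisome protein, and Pole, the catalytic subunit of DNA polymerase epsilon, had log2 fold changes of 0.28, -0.14 and -0.053.

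DNA repair genes had 6 divergent peaks and 0 calls, with log2 fold changes from -0.26 to 0.32. Fancf, a Fanconi anemia core complex subunit, shared with Gas2 a peak with 195 and 199 in serum and 171 and 146 in 2i. Gen1, a Holliday junction resolvase, and Smc6, of the SMC5/6 complex, are both repair genes and shared a peak with 117 and 84.8 in serum and 71.1 and 97.0 in 2i, where the conditions overlap. Wrn, the helicase of Werner syndrome, and Purg had starts 798 bp apart, the widest of all, and a log2 fold change of -0.26. The mitosis list had 4 peaks, of which 1, Cep63/Anapc13, was called, as higher in 2i. The strongest of the 4, Thoc4/Anapc11, went the other way, with a log2 fold change of 0.30 and both serum values above both 2i values. The 26 single-gene peaks of this list had a median log2 fold change of 0.18. Haus8, a subunit of the augmin complex, had a log2 fold change of -0.82 without passing the test, and Kif1c, a kinesin of vesicle transport that a name pattern placed in the list, one of -0.70.

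Mitochondrial genes had 8 divergent peaks, and 1 of them, Ndufa4/Phf14, was called, as higher in 2i. Atp5h, an ATP synthase subunit, and Kctd2 had 136 and 139 in serum and 158 and 153 in 2i, with a log2 fold change of -0.18 (standard error 0.24, limma adjusted p = 0.757). Ribosomal protein, translation factor and tRNA synthetase genes had 8 peaks and 0 calls, with a median log2 fold change of 0.19. Vars, a valine tRNA synthetase, had 157 and 79.1 in serum and 167 and 104 in 2i, an example of replicates that differ more than conditions. Rpl36al, a ribosomal protein gene, had a log2 fold change of -0.49, and Eif1ad, with Banf1, one of 0.72 (standard error 0.28, limma adjusted p = 0.218).

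Splicing and RNA processing genes had 11 peaks with a median of 0.30, and only Dhx32/Fank1 was called, as higher in 2i. That call was lost with a pseudocount of 8 (log2 fold change -0.87) and with cyclic loess (-0.52). It was also lost without serum replicate 2 (-0.94), and without 2i replicate 1 (-1.17) or 2i replicate 2 (-1.48), where the fold change stayed past 1. Hnrnpd and Hnrnpf, which encode RNA-binding hnRNP proteins, had log2 fold changes of 0.44 and -0.22. Ubiquitin and proteasome genes had 6 peaks with a median of -0.32, and only Psma7/Ss18l1 was called, as higher in 2i. It was not called with a pseudocount of 8 (-0.94), with cyclic loess (-0.97) or without serum replicate 1 (-0.66). Nor was it called without 2i replicate 1 (-1.11) or 2i replicate 2 (-1.33), where the fold change stayed past 1. Fbxo45, a ubiquitin ligase receptor, had 148 and 164 in serum and 222 and 199 in 2i, apart but with a log2 fold change of -0.43, and the ubiquitin-conjugating enzymes Ube2q1 and Ube2k had 0.19 and 0.14. Chromatin modifier genes had 3 peaks and 0 calls, at Kdm2b, a histone demethylase (0.35), at Mll5, a SET domain protein (-0.18), and at Mllt11 (-0.20), which a name pattern placed there. The Zfp list also had 3 peaks and 0 calls, with -0.33 at Zfp276 (-0.60 to -0.068 with a sample left out), 0.21 at Zfp319 (0.034 to 0.40) and -0.93 at Zfp866 (-1.63 to -0.23, called without serum replicate 2).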

How the data were processed

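E2F1 ChIP-seq was measured in 2 serum and 2 2i ESC samples. By their methods, the authors used BWA with default parameters and mm9 for the paired 43 bp reads, dropped duplicates (picard) and blacklisted regions (ENCODE), called peaks per sample with macs2, kept those shared by replicates, merged serum and 2i peaks, counted reads with bedtools and tested them with DESeq2. Versions are not given in the sources used here. They deposited a signal per peak and sample, counts divided by 1 size factor. Of all values, 9 were deposited as exactly 2, none of them at a divergent peak. Peaks seen in a single replicate are thus not in the table.

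Here log2(normalized count + 1) was tested with limma 3.58.1 (R 4.3.3), with eBayes and a trend, over all 4523 peaks and 4 samples without a block. A call needed a log2 fold change past 1 and an unadjusted p under 0.05, and adjusted p-values are Benjamini-Hochberg over all peaks. Levels were compared as per-sample medians by exact permutation tests (Python 3.11.15, scipy 1.17.1). In simulated reads for the 4523 peaks, 196 of 200 peaks changed 4-fold and 76 unchanged ones were called, and without changes 67 were called and 0 after adjustment. Reads per sample were inferred from the step between low values and used only to describe depth.

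Starts were all transcripts of protein-coding genes in GENCODE M1 on NCBIM37 (mm9). Peak coordinates are as deposited, and whether they count from 0 or 1 is not stated. Motifs were searched within 200 bp of the centre, leaving out 14 peaks on unplaced contigs. The members, gene lists and tests were chosen with earlier results of these data known. The named peaks are up to 10 called ones per direction with the largest change and no overlap of replicates, the 8 highest, textbook pairs, and per list the 3 highest and any called. The remaining called peaks were named after their values were seen. Alternatives were pseudocounts of 0.1 and 8, a minimum mean of 50, 3 scalings, no trend, a replicate block, omission of each sample or of chromosomes 6, 8, X and contigs, windows of 250 and 1000 bp and protein-coding transcripts only. Leaving out histone pairs or predicted genes was added after the data were seen.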

Additional observations from a re-analysis of the deposited data

How the results depend on the processing

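The 19 calls at divergent peaks became 10 with a pseudocount of 8, 9 with cyclic loess, 6 above a minimum mean of 50 (149 peaks tested), 12 with a window of 250 bp (144 peaks, 0 higher in serum), 12 without pairs with a predicted gene (171 peaks) and 0 with an adjusted p. They ranged from 11 (without serum replicate 1) to 33 (without serum replicate 2) with each sample left out, and were 12 without 2i replicate 2. Calls over all peaks moved as well, from 466 to 317 with a pseudocount of 8, 398 with cyclic loess, 188 above a minimum mean of 50, and 378 (without 2i replicate 1) to 674 (without serum replicate 2) with a sample left out. Fewer peaks were tested above the minimum mean, with the narrower window and without predicted genes, and for the other settings the cause was not tested. The other 9 settings gave 16 to 24 calls. The median log2 fold change of -0.077 moved to -0.17 when all samples were rescaled to the same total, where the median of all peaks shifted to -0.12 as well. It was -0.0076 above a minimum mean of 50, where the medians of all and of single-gene peaks turned positive (0.042 and 0.023), -0.14 with the 250 bp window (-0.062 at single-gene peaks) and -0.12 without histone pairs. It stayed between -0.095 and -0.058 with each sample left out. The level difference between promoter kinds stayed positive (0.0054 to 0.12, and 0.057 to 0.10 with a sample left out). Its serum minus 2i difference reversed to 0.081 above a minimum mean of 50 (exact permutation p = 0.33) and was otherwise negative, from -0.0995 to -0.018 with a sample left out. With the replicate block 19 peaks were called again, 4 and 15, of which 7 passed adjustment, 3 of them at histone pairs. The numbers do not pair the samples by design, and the deviations of same-numbered samples had a correlation of 0.048 across peaks.

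Of the 14 named called peaks, 8 lost the call without serum replicate 1, 2 without serum replicate 2, 9 without 2i replicate 1, 8 without 2i replicate 2, 7 with cyclic loess, 5 with a pseudocount of 8, 2 after rescaling to the same total and 0 with the replicate block. No called one changed sign, and with a sample left out 3 moved by over 1.5 times, Psma7/Ss18l1 (-0.66) and Gm10517/Trp53bp2 (-0.74) without serum replicate 1 and 4930597O21Rik/Gng12 (-0.74) without 2i replicate 1. So did Dhx32/Fank1 (-0.52), Skiv2l/Rdbp (-0.99), Sobp/9030612E09Rik (-0.77) and Ofd1/Trappc2 (-1.01) with cyclic loess, and Dhx32/Fank1 (-0.87) with a pseudocount of 8. Of the 31 named uncalled peaks, 24 moved by over 1.5 times with a sample left out. A call was gained by Actg1/0610009L18Rik (1.13) and Hist1h2ah/Hist1h2bk (1.12) without 2i replicate 1 and by Zfp866/Atp13a1 (-1.63) without serum replicate 2. Log2 fold changes of uncalled peaks crossed 0 with a sample left out at Wdhd1/Socs4 (-0.58 to 0.30), D17H6S56E-5/Vars (-0.73 to 0.25), 4632404H12Rik/Ube2q1 (-0.11 to 0.50), 1110003E01Rik/Ube2k (-0.0046 to 0.28), 5031425E22Rik/Mll5 (-0.51 to 0.14) and Taf5l/Urb2 (-0.24 to 0.16). The planned tests on reads with edgeR and DESeq2 were not run. At least 99.8% of the values of each sample were within 0.1 reads of a whole multiple of 1 step, but the reads inferred from it were used only to describe depth. A fold change at the weakest peaks rests on a few reads in serum replicate 1.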
